A study of Mus musculus with 18 samples.

Results

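The 38 genes described here make up the machinery of DNA replication: the MCM helicase and the factors that load and start it, the polymerases with their clamp, the enzymes that join Okazaki fragments and supply nucleotides, the factors that rebuild chromatin behind the fork, and E2f1. They were taken by name from a list of mouse symbols, with no threshold on a measured value, though the list was drawn up with earlier results of these data known. All 38 were found among the 54532 genes of the count table, and all 38 were among the 17833 genes with enough counts to be tested. RNA came from the gastrocnemius, the large calf muscle, of female C57BL/6 mice. The genotypes are written flox for flox/flox mice and mKO for mice labelled with a conditional knockout of Zfp697 in skeletal muscle. Mice of each genotype were kept in conventional cages (control), had their hindlimbs unloaded for 10 days (unloading), or were reloaded for 3 days (reloading). Each of the 6 groups had 3 libraries. The promoter that drove the deletion, the age of the mice and whether each library came from its own animal are not given in the sources used here, so p-values measure the spread between these libraries, which may be technical. Zfp697 was not measured by cell type here, and mKO below always means the libraries carrying that label.

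Before a cell copies its DNA, the origin recognition complex, Cdc6 and Cdt1 place the ring of MCM subunits on each origin as an inactive double hexamer. At the start of S phase, Cdc45 and the GINS complex join the ring and it begins to unwind DNA, polymerase alpha with primase lays primers, and the clamp Pcna holds the replicative polymerases on the template. Many of these genes are known targets of E2F factors and are transcribed as cells enter S phase. Muscle fibres are post-mitotic, and the dividing cells of adult muscle are the satellite cells and their progeny, fibro-adipogenic progenitors, endothelial cells and immune cells.

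Library totals lay between 45069595 and 51592566 counts. Values are given as CPM, counts scaled to each library total after TMM correction, whose factors ran from 1.06 to 1.09 in flox reloading and from 0.952 to 1.05 elsewhere. Zfp697 itself measured 0.984 to 1.598 CPM in flox control, 1.58 to 1.74 in flox unloading and 2.33 to 2.79 in flox reloading, against 1.05 to 1.31, 1.09 to 2.47 and 1.47 to 1.95 in the same mKO groups. Its mKO minus flox difference was 0.01 ± 0.26 (SE) log2 at control and -0.61 ± 0.25 at reloading (adjusted p = 0.172). These are sums over the whole gene in mixed tissue, so they do not test the genotype labels. The 8 fibre markers, Acta1 and Myh4 among them, summed to between 117276 and 168329 CPM over the 18 libraries.

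Promoters are shown because replication genes are known for the E2F words next to their start sites. RefSeq promoter windows on GRCm38.p6, 250 bases before to 50 after each start, were held for 32 of the 38 genes. Any of the 8-letter words TTTCGCGC or TTTGGCGC or TTTCCCGC, on either strand, stood in the windows of 13 of the 32 (40.6%), against 2.12% of all 27025 genes with a window. The 7-letter words inside them, TTCGCGC or TTGGCGC or TTCCCGC, which count every 8-letter match again, stood in 20 of 32 (62.5%) against 9.2%. The CHR words TTTGAA or TTCGAA, known from genes of the G2 and M phases, were in 6 of 32 (18.8%) against 21.7% of all genes, and in 76.9% of the mitosis genes with a window. CCAAT was in 19 of 32 (59.4%) against 41.1%. Capitals below mark the 8-letter E2F words, and each sequence is written on the strand of its gene. Whole windows are shown for the most abundant member of 3 of the 9 roles, chosen so that 2 hold such a word and 1 does not: Mcm7 (chr5:138171834-138172133, minus strand), Lig1 (chr7:13278576-13278875, plus strand) and Pcna (chr2:132253131-132253430, minus strand), whose window held no such word. The table has 2 windows for Mcm7 and 3 for Lig1, from different start sites, and the others of each held no 8-letter word. Nor did the windows of Chaf1a, Cdc45, Rrm1, Orc6, Pola2 and E2f1, the most abundant windowed members of the other roles. The E2f1 window (chr2:154569377-154569676, minus strand) lies wholly inside the annotated gene, whose upstream end is at 154569892. The sequence before that end was not scanned, so the missing word says nothing of it. Also wholly inside their annotated genes are the windows with words used below for Mcm7, Lig1, Cdc6 and Uhrf1. The upstream ends of these genes are at 138172422, 13277283, 98907801 and 56303321, in that order.
Mcm7: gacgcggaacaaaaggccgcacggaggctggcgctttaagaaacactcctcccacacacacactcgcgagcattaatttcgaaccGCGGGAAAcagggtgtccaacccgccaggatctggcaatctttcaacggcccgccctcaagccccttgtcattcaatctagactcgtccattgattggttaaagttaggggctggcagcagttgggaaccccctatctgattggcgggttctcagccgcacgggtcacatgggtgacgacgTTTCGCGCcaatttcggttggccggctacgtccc
Lig1: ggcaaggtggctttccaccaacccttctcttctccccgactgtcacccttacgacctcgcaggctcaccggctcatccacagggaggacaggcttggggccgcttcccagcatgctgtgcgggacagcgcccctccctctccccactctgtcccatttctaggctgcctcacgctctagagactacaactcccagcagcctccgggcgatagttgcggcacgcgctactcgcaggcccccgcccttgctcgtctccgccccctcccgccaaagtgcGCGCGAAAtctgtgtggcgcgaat
Pcna: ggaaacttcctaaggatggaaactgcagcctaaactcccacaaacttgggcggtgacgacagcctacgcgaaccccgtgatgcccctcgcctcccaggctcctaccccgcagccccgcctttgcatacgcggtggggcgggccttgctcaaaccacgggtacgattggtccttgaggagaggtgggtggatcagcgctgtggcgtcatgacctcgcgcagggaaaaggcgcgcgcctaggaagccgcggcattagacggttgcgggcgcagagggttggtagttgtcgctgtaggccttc
Shorter stretches around such words follow for 5 genes chosen after their values were seen, since they rose on reloading and hold a word: Mcm3 (chr1:20820263-20820329, minus strand), Mcm5 (chr8:75109320-75109399, plus), Mcm6 (chr1:128359772-128359851, minus), Cdc6 (chr11:98907977-98908056, plus) and Uhrf1 (chr17:56304092-56304171, plus).
Mcm3: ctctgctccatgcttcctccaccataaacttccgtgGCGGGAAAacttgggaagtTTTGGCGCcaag
Mcm5: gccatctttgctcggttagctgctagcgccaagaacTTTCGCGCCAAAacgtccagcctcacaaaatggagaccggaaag
Mcm6: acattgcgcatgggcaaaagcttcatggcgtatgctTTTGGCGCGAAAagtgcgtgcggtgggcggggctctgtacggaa
Cdc6: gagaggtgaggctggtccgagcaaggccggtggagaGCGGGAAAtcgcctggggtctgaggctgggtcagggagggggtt
Uhrf1: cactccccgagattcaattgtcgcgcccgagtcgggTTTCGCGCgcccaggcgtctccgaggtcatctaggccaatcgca
In Mcm5 and Mcm6 the capitals run on because words on the 2 strands overlap. Uhrf1 has a further window (chr17:56303087-56303386, plus), which held no 8-letter word. The 8-letter words were in 9 of the 20 windowed genes that rose on reloading in flox muscle (45.0%) and in 4 of the 12 that did not (33.3%). The 7-letter words had the opposite order, 12 of 20 (60%) and 8 of 12 (66.7%). A word is a run of letters and not a measured binding site.

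The replication genes changed most often on reloading. In flox muscle 23 of the 38 were higher at 3 days of reloading than at the end of unloading and 1 was lower, while over all tested genes 17% were higher and 14.9% lower. The median change of the 38 was 0.58 log2, beside 0.00 for all tested genes. For 26 members, all 3 reloading libraries lay above all 3 unloading libraries, as they did for 23.1% of all genes. In mKO muscle 11 members were higher and 0 lower, beside 9.53% and 8.81% of all genes, with a median of 0.28. There, 18 members had reloading libraries that all lay above the unloading ones, beside 16.6% of all genes. The 11 are 11 of the 23 that rose in flox muscle: Mcm2, Mcm3, Mcm5, Mcm6, Cdt1, Lig1, Rrm2, Tyms, Tk1, Uhrf1 and E2f1. Summed over the 38, the level was 283.6 to 307.3 CPM in the flox reloading libraries, 225.6 to 246.3 in mKO reloading, and 206.0 to 239.7 in the other 12. Changes below are log2 differences of edgeR's quasi-likelihood test with their SE, and adjusted p is Benjamini-Hochberg over all tested genes.

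**Figure D1:**
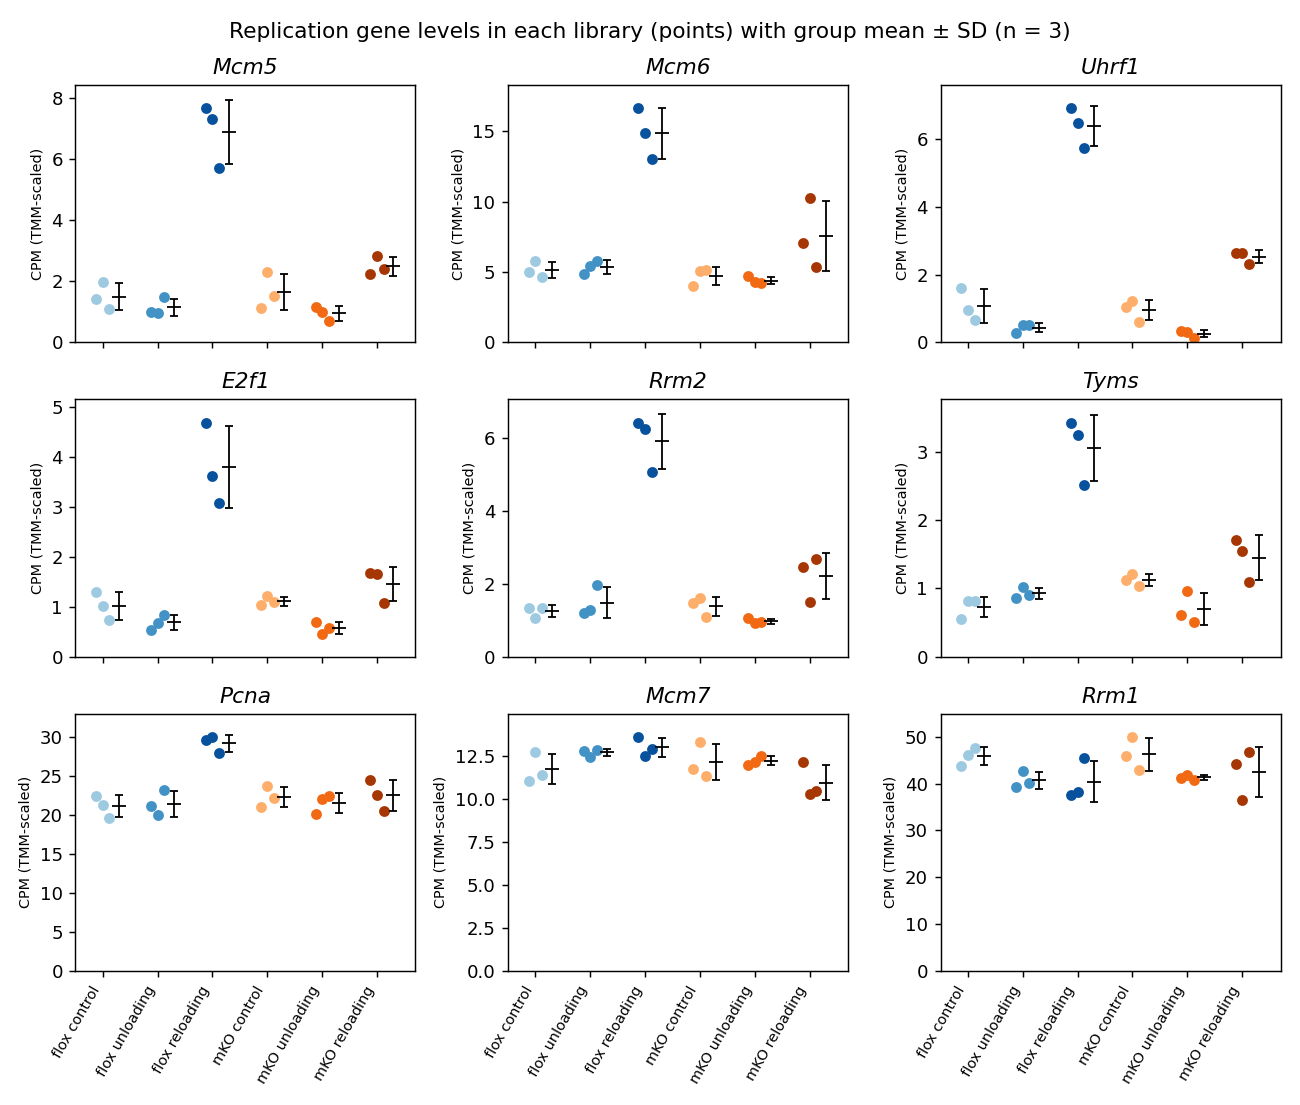
CPM (vertical axis, linear from 0) in each library of the 6 groups for 9 members, 1 panel a gene; each point is 1 library, and the bar beside it is the group mean ± SD (n = 3). Mcm5, Mcm6, Uhrf1, E2f1, Rrm2 and Tyms stand highest in the 3 flox reloading libraries, while Mcm7 stays between 10.3 and 13.6 CPM throughout.

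The MCM ring carried 5 of its 6 subunits upward on reloading in flox muscle and 4 in mKO muscle. Mcm5 stood at 1.43, 1.97 and 1.08 CPM at control, 1.01, 0.951 and 1.47 at unloading and 7.67, 7.32 and 5.71 at reloading in the flox libraries. In mKO muscle Mcm5 measured 1.12, 2.29 and 1.52 CPM at control, 1.16, 1.001 and 0.684 at unloading and 2.24, 2.84 and 2.397 at reloading. All 3 reloading libraries lay above the unloading libraries in both genotypes, and every flox reloading library lay above every mKO one. Mcm5 had the largest change of the ring, 2.59 ± 0.27 (adjusted p = 2.03e-06) in flox muscle, a 6.02-fold rise, and 1.397 ± 0.28 (adjusted p = 0.00209) in mKO muscle. Mcm6 stood at 5.03, 5.75 and 4.66 CPM at control, 4.84, 5.44 and 5.803 at unloading and 16.6, 14.9 and 13.05 at reloading in the flox libraries. In mKO muscle Mcm6 measured 3.97, 5.05 and 5.16 CPM at control, 4.72, 4.28 and 4.19 at unloading and 7.06, 10.3 and 5.39 at reloading. Flox reloading stood above all other groups, and mKO reloading above mKO unloading. Mcm6 rose by 1.47 ± 0.18 (adjusted p = 9.49e-06) in flox and 0.79 ± 0.18 (adjusted p = 0.00602) in mKO muscle. Mcm3 stood at 5.62, 5.25 and 4.77 CPM at control, 4.796, 4.76 and 4.07 at unloading and 9.42, 10.9 and 9.37 at reloading in the flox libraries. In mKO muscle Mcm3 measured 4.83, 5.41 and 4.68 CPM at control, 4.28, 4.41 and 4.403 at unloading and 6.19, 5.97 and 5.55 at reloading. Again the flox reloading values were the highest with no overlap. The change of Mcm3 was 1.12 ± 0.11 (adjusted p = 1.17e-06) in flox and 0.44 ± 0.11 (adjusted p = 0.0119) in mKO muscle. Mcm2 stood at 10.7, 10.4 and 8.24 CPM at control, 8.81, 10.8 and 9.296 at unloading and 17.2, 15.2 and 14.6 at reloading in the flox libraries. In mKO muscle Mcm2 measured 10.6, 10.8 and 9.904 CPM at control, 7.64, 9.74 and 9.43 at unloading and 13.99, 14.1 and 14.6 at reloading. The reloading libraries of both genotypes lay above their unloading ones and overlapped each other, and Mcm2 rose by 0.701 ± 0.12 (adjusted p = 1.69e-04) and 0.67 ± 0.12 (adjusted p = 6.90e-04). Mcm4 stood at 7.41, 7.65 and 7.43 CPM at control, 8.21, 6.43 and 8.44 at unloading and 11.5, 12.1 and 10.4 at reloading in the flox libraries. In mKO muscle Mcm4 measured 5.56, 9.71 and 7.58 CPM at control, 7.097, 7.44 and 6.75 at unloading and 7.404, 7.52 and 7.29 at reloading. The flox reloading libraries stood above all others, with 0.56 ± 0.15 (adjusted p = 0.00732) in flox and 0.06 ± 0.15 (adjusted p = 0.823) in mKO muscle. Mcm7 stood at 11.1, 12.7 and 11.4 CPM at control, 12.8, 12.5 and 12.9 at unloading and 13.6, 12.5 and 12.9 at reloading in the flox libraries. In mKO muscle Mcm7 measured 11.7, 13.3 and 11.3 CPM at control, 11.99, 12.2 and 12.5 at unloading and 12.2, 10.3 and 10.4 at reloading. Mcm7, the most abundant subunit in CPM, overlapped across the loading groups, with 0.03 ± 0.09 (adjusted p = 0.814) in flox and -0.16 ± 0.09 (adjusted p = 0.244) in mKO muscle. Its exons include the miRNA genes Mir93 and Mir25. Per kilobase of exon over the 18 libraries, Mcm7 stood at 2.74 CPM and Mcm5 at 0.610.

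Of the 4 origin recognition and licensing genes, 2 rose on reloading in flox muscle. Cdt1, the loading partner of Cdc6, stood at 0.767, 0.918 and 0.675 CPM at control, 0.741, 0.745 and 0.449 at unloading and 2.79, 1.85 and 1.49 at reloading in the flox libraries. In mKO muscle Cdt1 measured 0.687, 0.704 and 0.762 CPM at control, 0.568, 0.364 and 0.214 at unloading and 1.01, 1.25 and 1.07 at reloading. Reloading libraries lay above unloading ones in both genotypes, and the lowest flox reloading library was above the highest mKO one. Cdt1 rose by 1.66 ± 0.299 (adjusted p = 3.86e-04) in flox and 1.53 ± 0.33 (adjusted p = 0.00333) in mKO muscle, the largest licensing change there. Cdc6 stood at 0.383, 0.612 and 0.5402 CPM at control, 0.762, 0.248 and 0.531 at unloading and 1.69, 1.72 and 1.86 at reloading in the flox libraries. In mKO muscle Cdc6 measured 0.901, 0.563 and 0.7195 CPM at control, 0.218, 0.501 and 0.385 at unloading and 0.617, 0.549 and 0.697 at reloading. The 3 flox reloading libraries stood above all others. Cdc6, the ATPase that recruits Cdt1 and MCM to the origin complex, rose by 1.77 ± 0.33 (adjusted p = 5.65e-04) in flox muscle, and its mKO change was 0.75 ± 0.37 (adjusted p = 0.168). Orc6 stood at 3.301, 4.48 and 5.199 CPM at control, 5.87, 5.58 and 5.52 at unloading and 6.14, 6.21 and 4.43 at reloading in the flox libraries. In mKO muscle Orc6 measured 5.71, 4.91 and 5.44 CPM at control, 5.35, 4.82 and 5.77 at unloading and 5.39, 4.77 and 6.06 at reloading. Its groups overlapped between unloading and reloading, with -0.02 ± 0.16 (adjusted p = 0.952) in flox and 0.02 ± 0.16 (adjusted p = 0.941) in mKO muscle. Orc1, the largest subunit of the origin complex, was the scarcest of the 4 with 5 to 30 counts a library, and its changes of 0.72 ± 0.44 (adjusted p = 0.234) and 0.18 ± 0.48 (adjusted p = 0.835) did not pass.

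Helicase activation split into 2 genes with steep rises and 4 without. Gins2 stood at 0.256, 0.153 and 0.248 CPM at control, 0.206, 0.165 and 0.0817 at unloading and 1.12, 1.32 and 1.25 at reloading in the flox libraries. In mKO muscle Gins2 measured 0.258, 0.503 and 0.296 CPM at control, 0.109, 0.182 and 0.256 at unloading and 0.411, 0.360 and 0.328 at reloading. Flox reloading stood far above every other library, and mKO reloading above mKO unloading. Gins2, a GINS subunit, rose 8.02-fold, 3.003 ± 0.38 (adjusted p = 1.50e-05), in flox muscle; in mKO muscle its change was 0.99 ± 0.401 (adjusted p = 0.0963). Of the 4097 exonic bases of Gins2, 2758 also belong to Gse1 on the opposite strand, so reads of the 2 cannot be told apart if strand was not used in counting. Mcm10 stood at 0.256, 0.3499 and 0.113 CPM at control, 0.329, 0.124 and 0.204 at unloading and 1.94, 1.69 and 1.32 at reloading in the flox libraries. In mKO muscle Mcm10 measured 0.215, 0.0402 and 0.212 CPM at control, 0.393, 0.159 and 0.321 at unloading and 0.731, 0.531 and 0.246 at reloading. The flox reloading libraries did not overlap any other group, and the mKO groups overlapped one another at unloading and reloading. Mcm10, which activates the loaded helicase, rose by 2.89 ± 0.501 (adjusted p = 2.67e-04) in flox muscle, while mKO muscle gave 0.77 ± 0.51 (adjusted p = 0.326) on 2 to 32 counts in each mKO library. Gins4 stood at 10.9, 12.7 and 13.4 CPM at control, 12.2, 13.03 and 11.1 at unloading and 11.3, 10.1 and 12.2 at reloading in the flox libraries. In mKO muscle Gins4 measured 12.2, 12.05 and 12.4 CPM at control, 12.2, 11.7 and 11.5 at unloading and 11.6, 11.5 and 13.8 at reloading. Gins4, the most abundant of these genes, overlapped in all groups and did not pass, -0.11 ± 0.102 (adjusted p = 0.431) and 0.06 ± 0.102 (adjusted p = 0.725). Cdc45 stood at 3.37, 2.78 and 3.06 CPM at control, 3.54, 3.43 and 2.799 at unloading and 3.59, 4.65 and 3.39 at reloading in the flox libraries. In mKO muscle Cdc45 measured 3.05, 3.399 and 2.37 CPM at control, 3.56, 4.14 and 3.18 at unloading and 3.72, 2.79 and 3.91 at reloading. Unloading and reloading overlapped in both genotypes for Cdc45, the helicase cofactor, at 0.25 ± 0.18 (adjusted p = 0.308) and -0.06 ± 0.18 (adjusted p = 0.848). The other GINS subunits did not pass either: Gins1 at 0.17 ± 0.24 (adjusted p = 0.637) and Gins3 at 0.604 ± 0.24 (adjusted p = 0.06703) in flox muscle.

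Among 6 polymerase and primase genes, 4 rose in flox muscle and 0 in mKO muscle. Pola1 stood at 2.32, 2.14 and 2.903 CPM at control, 3.11, 1.903 and 3.04 at unloading and 5.73, 5.19 and 5.33 at reloading in the flox libraries. In mKO muscle Pola1 measured 2.36, 3.14 and 2.86 CPM at control, 2.75, 2.05 and 2.22 at unloading and 3.31, 3.22 and 2.91 at reloading. Reloading lay above unloading in both genotypes, and flox reloading above mKO reloading. Pola1, the catalytic subunit of polymerase alpha, rose by 1.01 ± 0.18 (adjusted p = 3.86e-04) in flox muscle, against 0.43 ± 0.19 (adjusted p = 0.124) in mKO muscle. Pola2 stood at 12.2, 12.1 and 11.5 CPM at control, 11.8, 10.9 and 11.3 at unloading and 15.7, 12.8 and 13.4 at reloading in the flox libraries. In mKO muscle Pola2 measured 13.2, 12.3 and 10.3 CPM at control, 10.7, 11.3 and 10.7 at unloading and 13.3, 12.4 and 13.6 at reloading. Reloading lay above unloading in both genotypes, and the genotypes overlapped at reloading. The rise of Pola2, its regulatory subunit, was 0.305 ± 0.097 (adjusted p = 0.0221), and the mKO change was 0.26 ± 0.097 (adjusted p = 0.0704). Prim1, the primase subunit that makes the RNA primer, had the largest change of the role, 1.24 ± 0.23 (adjusted p = 5.46e-04) in flox and 0.69 ± 0.24 (adjusted p = 0.0511) in mKO muscle. Prim2, the other primase subunit, rose by 0.88 ± 0.23 (adjusted p = 0.00805) in flox muscle. Pold1 stood at 7.05, 8.83 and 7.90 CPM at control, 7.698, 7.71 and 7.13 at unloading and 9.302, 8.73 and 8.81 at reloading in the flox libraries. In mKO muscle Pold1 measured 7.53, 8.31 and 8.66 CPM at control, 8.604, 7.42 and 7.69 at unloading and 8.14, 9.83 and 7.35 at reloading. The lagging and leading strand enzymes, Pold1 and Pole in that order, did not pass. In flox muscle Pold1 gave 0.25 ± 0.12 (adjusted p = 0.108) and Pole 0.15 ± 0.17 (adjusted p = 0.545). Pole was at 0.06 ± 0.17 (adjusted p = 0.843) in mKO muscle. Pold1 reloading libraries all lay above the unloading ones in flox muscle, by a margin that did not pass.

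The clamp, its loader and single-strand binding gave 2 rises and 1 fall. Pcna, the sliding clamp, stood at 22.4, 21.3 and 19.6 CPM at control, 21.1, 19.96 and 23.2 at unloading and 29.6, 29.996 and 27.9 at reloading in the flox libraries. In mKO muscle Pcna measured 21.1, 23.7 and 22.2 CPM at control, 20.1, 22.1 and 22.4 at unloading and 24.5, 22.5 and 20.5 at reloading. All flox reloading libraries lay above all others, and the mKO groups overlapped. Pcna rose by 0.45 ± 0.08 (adjusted p = 5.74e-04) in flox muscle and had a log2 change of 0.06 ± 0.08 (adjusted p = 0.659) in mKO muscle. At 9.59 CPM per kilobase over the 18 libraries, it was the most abundant member by length, and the pseudogenes Pcna-ps1 and Pcna-ps2 may share its reads. Rpa2 stood at 25.2, 25.5 and 24.1 CPM at control, 23.9, 22.98 and 24.3 at unloading and 20.97, 18.03 and 20.002 at reloading in the flox libraries. In mKO muscle Rpa2 measured 24.4, 24.3 and 23.3 CPM at control, 20.99, 23.1 and 25.6 at unloading and 25.6, 18.6 and 21.3 at reloading. Rpa2, part of the single-strand binding complex, ran the other way: flox reloading fell below flox unloading with no overlap, -0.27 ± 0.099 (adjusted p = 0.0438). The fall did not pass with total-count scaling (-0.16) or with no low-count filter (-0.27), and mKO muscle gave -0.09 ± 0.099 (adjusted p = 0.572). Rfc5 stood at 2.96, 3.06 and 2.63 CPM at control, 3.05, 3.39 and 3.15 at unloading and 4.202, 4.02 and 3.12 at reloading in the flox libraries. In mKO muscle Rfc5 measured 2.597, 2.92 and 2.62 CPM at control, 3.45, 2.23 and 3.98 at unloading and 2.35, 2.41 and 2.25 at reloading. Rfc5, a clamp loader subunit, did not pass in either genotype, 0.24 ± 0.17 (adjusted p = 0.316) and -0.46 ± 0.18 (adjusted p = 0.0822). Its partner Rfc3 rose by 0.51 ± 0.18 (adjusted p = 0.0323) in flox muscle, against 0.41 ± 0.18 (adjusted p = 0.125) in mKO, and Rfc4 had a log2 change of 0.27 ± 0.15 (adjusted p = 0.188).

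Lig1, the ligase that seals Okazaki fragments, stood at 2.07, 2.41 and 2.66 CPM at control, 1.85, 1.94 and 2.45 at unloading and 7.57, 6.23 and 5.54 at reloading in the flox libraries. In mKO muscle Lig1 measured 2.55, 2.84 and 1.99 CPM at control, 1.64, 1.43 and 1.75 at unloading and 3.63, 2.82 and 2.64 at reloading. Flox reloading did not overlap any other group, and mKO reloading lay above mKO unloading. Lig1 rose by 1.63 ± 0.18 (adjusted p = 3.98e-06) in flox and 0.91 ± 0.19 (adjusted p = 0.00274) in mKO muscle. Fen1 stood at 0.277, 0.634 and 0.338 CPM at control, 0.556, 0.807 and 0.511 at unloading and 0.755, 0.371 and 0.556 at reloading in the flox libraries. In mKO muscle Fen1 measured 0.687, 0.503 and 0.317 CPM at control, 0.5896, 0.387 and 0.598 at unloading and 0.617, 0.379 and 0.369 at reloading. Fen1, the flap nuclease of the same step, overlapped between unloading and reloading, at -0.16 ± 0.38 (adjusted p = 0.788) and -0.22 ± 0.398 (adjusted p = 0.759). Its counts are an uncertain measure, since 2039 of its 2422 exonic bases also belong to Gm10143 and Tmem258.

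Nucleotide supply gave 3 rises of 5 in each genotype. Rrm2 stood at 1.34, 1.05 and 1.33 CPM at control, 1.19, 1.28 and 1.96 at unloading and 6.43, 6.24 and 5.06 at reloading in the flox libraries. In mKO muscle Rrm2 measured 1.46, 1.61 and 1.1005 CPM at control, 1.05, 0.9103 and 0.9404 at unloading and 2.47, 1.497 and 2.68 at reloading. The 3 flox reloading libraries were above all others, and mKO reloading above mKO unloading. Rrm2, the cell cycle regulated subunit of ribonucleotide reductase, rose by 1.996 ± 0.23 (adjusted p = 5.03e-06), 3.99-fold, in flox and by 1.19 ± 0.24 (adjusted p = 0.00238) in mKO muscle. Rrm1 stood at 43.8, 46.1 and 47.7 CPM at control, 39.2, 42.6 and 40.1 at unloading and 37.5, 38.2 and 45.4 at reloading in the flox libraries. In mKO muscle Rrm1 measured 45.97, 49.9 and 42.9 CPM at control, 41.3, 41.9 and 40.8 at unloading and 44.3, 36.5 and 46.7 at reloading. Rrm1, its large subunit, was by CPM the most abundant nucleotide gene and did not pass, -0.01 ± 0.09 (adjusted p = 0.9498) and 0.04 ± 0.09 (adjusted p = 0.811). Tyms stood at 0.554, 0.809 and 0.8103 CPM at control, 0.864, 1.01 and 0.899 at unloading and 3.43, 3.24 and 2.51 at reloading in the flox libraries. In mKO muscle Tyms measured 1.12, 1.21 and 1.04 CPM at control, 0.611, 0.956 and 0.513 at unloading and 1.71, 1.55 and 1.09 at reloading. Flox reloading again stood apart. Tyms, which makes thymidylate, rose by 1.72 ± 0.24 (adjusted p = 3.42e-05) and 1.06 ± 0.25 (adjusted p = 0.006799); a pseudogene named Tyms-ps may share its reads. Tk1 stood at 9.201, 7.37 and 7.49 CPM at control, 7.99, 7.404 and 8.34 at unloading and 12.04, 10.4 and 9.85 at reloading in the flox libraries. In mKO muscle Tk1 measured 9.399, 8.33 and 8.23 CPM at control, 6.81, 6.37 and 7.74 at unloading and 9.598, 7.996 and 11.7 at reloading. Flox and mKO reloading overlapped for Tk1, the thymidine salvage kinase, which rose by 0.44 ± 0.13 (adjusted p = 0.0172) in flox and 0.48 ± 0.14 (adjusted p = 0.0186) in mKO muscle. Dut, which clears dUTP, had a log2 change of 0.18 ± 0.15 (adjusted p = 0.376) and -0.199 ± 0.15 (adjusted p = 0.3798).

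All 3 chromatin genes rose in flox muscle. Uhrf1 stood at 1.62, 0.962 and 0.653 CPM at control, 0.288, 0.496 and 0.511 at unloading and 6.92, 6.48 and 5.75 at reloading in the flox libraries. In mKO muscle Uhrf1 measured 1.03, 1.21 and 0.614 CPM at control, 0.328, 0.319 and 0.128 at unloading and 2.63, 2.65 and 2.31 at reloading. Uhrf1, which guides DNA methylation onto new strands, had the largest change of the 38 in both genotypes: 3.88 ± 0.33 (adjusted p = 3.15e-07) in flox, 14.7-fold, and 3.29 ± 0.36 (adjusted p = 2.03e-05) in mKO muscle. Its reloading libraries lay above unloading in both, and flox reloading above mKO reloading. Chaf1b stood at 0.234, 0.262 and 0.315 CPM at control, 0.412, 0.2895 and 0.368 at unloading and 1.55, 1.82 and 1.32 at reloading in the flox libraries. In mKO muscle Chaf1b measured 0.429, 0.503 and 0.254 CPM at control, 0.306, 0.2503 and 0.256 at unloading and 0.7998, 0.455 and 0.369 at reloading. Flox reloading did not overlap any other group. Chaf1b, a subunit of the chromatin assembly factor, rose by 2.12 ± 0.32 (adjusted p = 7.24e-05) in flox muscle, and mKO muscle gave 0.98 ± 0.35 (adjusted p = 0.0569). Chaf1a stood at 1.51, 2.27 and 1.85 CPM at control, 2.22, 2.56 and 1.92 at unloading and 3.43, 2.95 and 3.01 at reloading in the flox libraries. In mKO muscle Chaf1a measured 2.17, 1.97 and 1.799 CPM at control, 2.49, 2.03 and 2.54 at unloading and 2.86, 2.48 and 2.29 at reloading. Chaf1a, its large subunit, rose by 0.48 ± 0.17 (adjusted p = 0.0394) in flox muscle and had a log2 change of 0.11 ± 0.17 (adjusted p = 0.713) in mKO muscle, with 4648 of its 8854 exonic bases shared with Ubxn6. E2f1 stood at 1.299, 1.01 and 0.743 CPM at control, 0.535, 0.682 and 0.838 at unloading and 4.69, 3.63 and 3.08 at reloading in the flox libraries. In mKO muscle E2f1 measured 1.03, 1.21 and 1.1005 CPM at control, 0.699, 0.455 and 0.577 at unloading and 1.67, 1.65 and 1.07 at reloading. E2f1, the transcription factor, was highest in flox reloading with no overlap, and its lowest library was in mKO unloading. E2f1 rose by 2.47 ± 0.26 (adjusted p = 2.09e-06) in flox and 1.33 ± 0.27 (adjusted p = 0.002299) in mKO muscle.

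**Figure D2:**
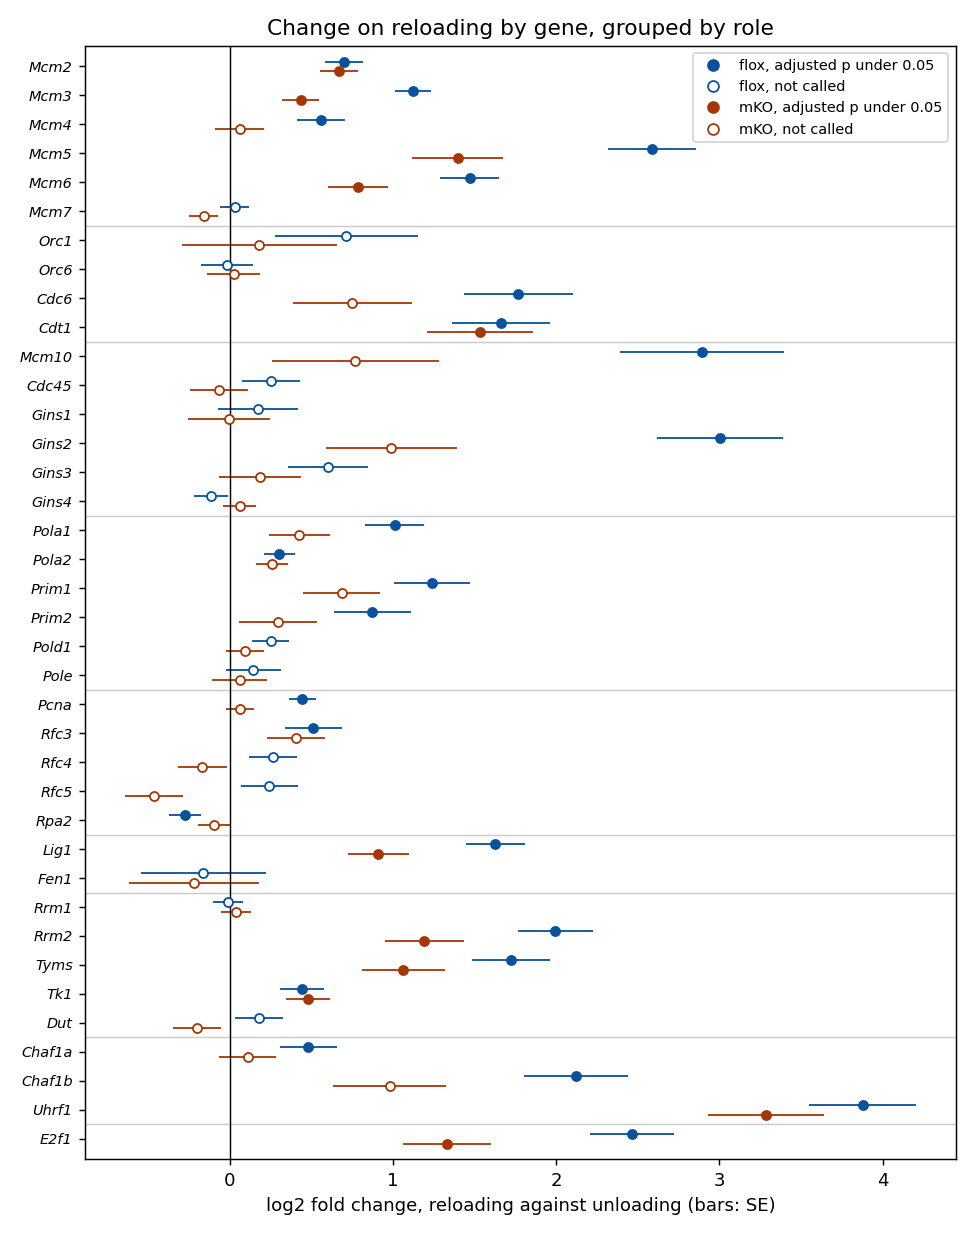
Log2 change from unloading to reloading (horizontal axis) of each of the 38 genes, in flox (blue) and mKO (brown) muscle, grouped by role, with bars for the SE; filled points passed the adjusted p of 0.05. Uhrf1, Gins2 and Mcm10 are farthest to the right in flox muscle, and Rpa2 is the member that fell there.

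Members that were scarce at control had the larger changes. The split at 3 CPM in flox control was chosen with the values known. Below it, 16 of 21 members passed in either direction between reloading and unloading in flox muscle, with a median of 1.63 log2. At or above it 8 of 17 passed with a median of 0.25. Over all tested genes, not split by level, 31.9% passed in either direction. The split was not made for all genes, so whether the pattern is particular to these members was not tested. The rank correlation of the flox control level with that change was -0.64 over the 38 genes, and -0.67 with the mKO control level, given as a description over genes that share their libraries.

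**Figure D3:**
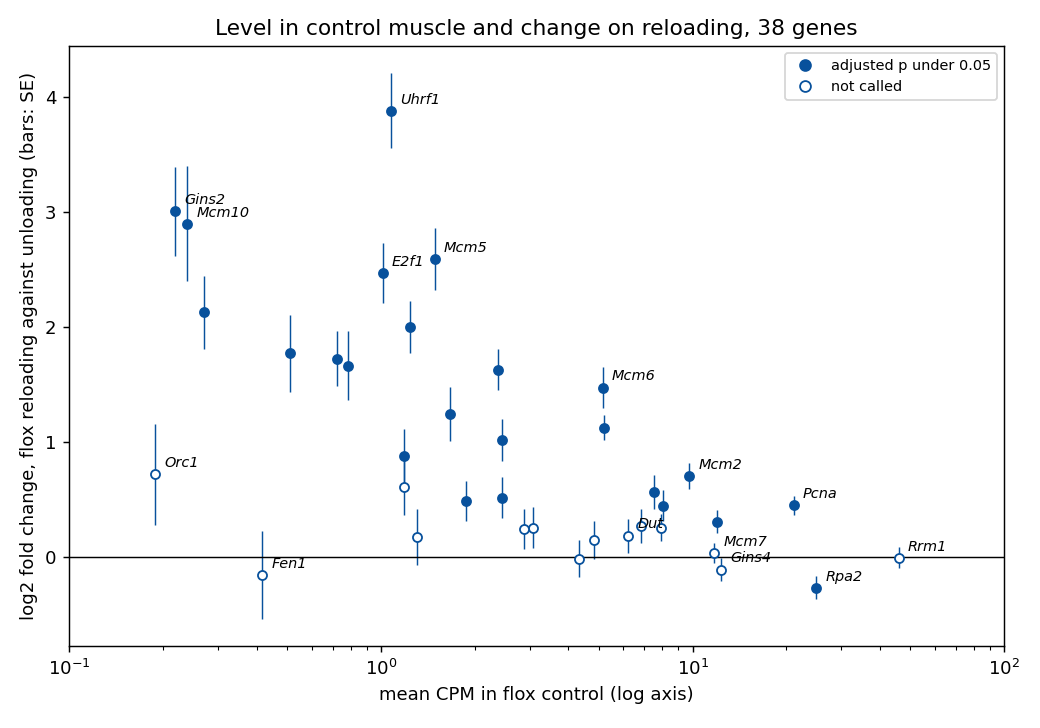
Mean CPM in flox control (horizontal axis, log scale) against the log2 change from unloading to reloading in flox muscle (vertical axis), 1 point a gene with its SE; filled points passed the adjusted p of 0.05. Scarce members such as Uhrf1 and Gins2 stand high, and abundant ones such as Rrm1 and Rpa2 stand near 0.

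Against the control cages, reloading in flox muscle left 22 members higher and 1, Rpa2, lower, where 12.3% of all genes were higher and 10.3% lower. The median was 0.70. This comparison shares the flox reloading libraries with the one above. Among the MCM subunits, Mcm7 had the lowest log2 change, 0.15 ± 0.09 (adjusted p = 0.259), and Mcm5 the highest, 2.21 ± 0.26 (adjusted p = 1.85e-05). Within the licensing genes, Orc6 had the lowest log2 change, 0.37 ± 0.16 (adjusted p = 0.1104), and Cdc6 the highest, 1.78 ± 0.34 (adjusted p = 9.78e-04). Of the helicase activation genes, Gins4 had the lowest log2 change, -0.14 ± 0.102 (adjusted p = 0.348), and Mcm10 the highest, 2.77 ± 0.499 (adjusted p = 6.82e-04). Among the polymerase and primase genes, Pole had the lowest log2 change, 0.16 ± 0.17 (adjusted p = 0.537), and Prim2 the highest, 1.22 ± 0.24 (adjusted p = 0.00128). Within the clamp, loader and single-strand binding genes, Rpa2 had the lowest log2 change, -0.34 ± 0.099 (adjusted p = 0.0181), and Rfc3 the highest, 0.73 ± 0.18 (adjusted p = 0.00625). Of the Okazaki fragment genes, Fen1 had the lowest log2 change, 0.42 ± 0.397 (adjusted p = 0.489), and Lig1 the highest, 1.44 ± 0.18 (adjusted p = 2.87e-05). Among the nucleotide synthesis genes, Dut had the lowest log2 change, -0.401 ± 0.14 (adjusted p = 0.0541), and Rrm2 the highest, 2.25 ± 0.23 (adjusted p = 6.19e-06). Within the chromatin genes, Chaf1a had the lowest log2 change, 0.74 ± 0.17 (adjusted p = 0.00517), and Uhrf1 the highest, 2.56 ± 0.297 (adjusted p = 1.47e-05). E2f1 had a log2 change of 1.898 ± 0.25 (adjusted p = 4.47e-05).

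In mKO muscle the same comparison left 1 member higher, Uhrf1, and 0 lower, with 1.34% and 0.841% of all genes higher and lower and a median of 0.11. Among the MCM subunits, Mcm7 had the lowest log2 change, -0.15 ± 0.09 (adjusted p = 0.451), and Mcm6 the highest, 0.68 ± 0.18 (adjusted p = 0.0553). Within the licensing genes, Cdc6 had the lowest log2 change, -0.23 ± 0.34 (adjusted p = 0.808), and Cdt1 the highest, 0.63 ± 0.303 (adjusted p = 0.321). Of the helicase activation genes, Gins1 had the lowest log2 change, -0.29 ± 0.25 (adjusted p = 0.623), and Mcm10 the highest, 1.68 ± 0.55 (adjusted p = 0.117). Among the polymerase and primase genes, Pole had the lowest log2 change, -0.14 ± 0.17 (adjusted p = 0.7502), and Prim1 the highest, 0.53 ± 0.23 (adjusted p = 0.269). Within the clamp, loader and single-strand binding genes, Rfc5 had the lowest log2 change, -0.21 ± 0.18 (adjusted p = 0.6096), and Rfc3 the highest, 0.04 ± 0.18 (adjusted p = 0.944). Of the Okazaki fragment genes, Fen1 had the lowest log2 change, -0.15 ± 0.398 (adjusted p = 0.897), and Lig1 the highest, 0.299 ± 0.18 (adjusted p = 0.4501). Among the nucleotide synthesis genes, Dut had the lowest log2 change, -0.22 ± 0.15 (adjusted p = 0.497), and Rrm2 the highest, 0.67 ± 0.23 (adjusted p = 0.145). Within the chromatin genes, Chaf1a had the lowest log2 change, 0.36 ± 0.18 (adjusted p = 0.324), and Uhrf1 the highest, 1.41 ± 0.300 (adjusted p = 0.0202). E2f1 had a log2 change of 0.39 ± 0.25 (adjusted p = 0.483).

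Unloading itself moved few members, as it moved few of all genes. In either direction 5.74% of all tested genes passed in flox muscle and 7.75% in mKO muscle. In flox muscle 0 were higher and 2 lower, Dut and Uhrf1, beside 2.67% of all genes higher and 3.07% lower. The median was 0.01. Among the MCM subunits, Mcm5 had the lowest log2 change, -0.38 ± 0.28 (adjusted p = 0.482), and Mcm7 the highest, 0.11 ± 0.09 (adjusted p = 0.516). Within the licensing genes, Cdt1 had the lowest log2 change, -0.29 ± 0.31 (adjusted p = 0.6697), and Orc1 the highest, 0.45 ± 0.48 (adjusted p = 0.655). Of the helicase activation genes, Gins2 had the lowest log2 change, -0.53 ± 0.43 (adjusted p = 0.539), and Gins1 the highest, 0.32 ± 0.25 (adjusted p = 0.512). Among the polymerase and primase genes, Prim1 had the lowest log2 change, -0.49 ± 0.24 (adjusted p = 0.257), and Prim2 the highest, 0.35 ± 0.25 (adjusted p = 0.466). Within the clamp, loader and single-strand binding genes, Rpa2 had the lowest log2 change, -0.07 ± 0.099 (adjusted p = 0.756), and Rfc3 the highest, 0.21 ± 0.18 (adjusted p = 0.557). Of the Okazaki fragment genes, Lig1 had the lowest log2 change, -0.19 ± 0.19 (adjusted p = 0.627), and Fen1 the highest, 0.58 ± 0.396 (adjusted p = 0.441). Among the nucleotide synthesis genes, Dut had the lowest log2 change, -0.58 ± 0.15 (adjusted p = 0.02499), and Tyms the highest, 0.35 ± 0.26 (adjusted p = 0.479). Within the chromatin genes, Uhrf1 had the lowest log2 change, -1.32 ± 0.34 (adjusted p = 0.0298), and Chaf1b the highest, 0.396 ± 0.36 (adjusted p = 0.588). E2f1 had a log2 change of -0.57 ± 0.27 (adjusted p = 0.244). Neither call held under every alternative setting. Dut stood at 6.37, 5.73 and 6.55 CPM in flox control and 4.57, 3.99 and 3.88 in flox unloading, and its groups did not overlap.

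In mKO muscle 0 were higher after unloading and 2 lower, Uhrf1 and E2f1, beside 4.09% of all genes higher and 3.66% lower, with a median of -0.16. All 3 unloading libraries lay below all 3 control libraries for 12 members, beside 14% of all genes. Among the MCM subunits, Mcm5 had the lowest log2 change, -0.798 ± 0.28 (adjusted p = 0.0938), and Mcm7 the highest, 0.01 ± 0.09 (adjusted p = 0.9601). Within the licensing genes, Cdc6 had the lowest log2 change, -0.98 ± 0.36 (adjusted p = 0.105), and Orc6 the highest, -0.01 ± 0.16 (adjusted p = 0.983). Of the helicase activation genes, Gins2 had the lowest log2 change, -0.94 ± 0.403 (adjusted p = 0.162), and Mcm10 the highest, 0.91 ± 0.58 (adjusted p = 0.373). Among the polymerase and primase genes, Pola1 had the lowest log2 change, -0.25 ± 0.19 (adjusted p = 0.457), and Prim2 the highest, -0.03 ± 0.24 (adjusted p = 0.9601). Within the clamp, loader and single-strand binding genes, Rfc3 had the lowest log2 change, -0.37 ± 0.18 (adjusted p = 0.226), and Rfc5 the highest, 0.25 ± 0.18 (adjusted p = 0.436). Of the Okazaki fragment genes, Lig1 had the lowest log2 change, -0.61 ± 0.19 (adjusted p = 0.0559), and Fen1 the highest, 0.07 ± 0.39 (adjusted p = 0.947). Among the nucleotide synthesis genes, Tyms had the lowest log2 change, -0.69 ± 0.26 (adjusted p = 0.104), and Dut the highest, -0.02 ± 0.14 (adjusted p = 0.957). Within the chromatin genes, Uhrf1 had the lowest log2 change, -1.88 ± 0.38 (adjusted p = 0.00603), and Chaf1a the highest, 0.25 ± 0.18 (adjusted p = 0.427). E2f1 fell by 0.94 on the log2 scale (adjusted p = 0.0422).

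The genotypes were then compared at each loading state. At control and at unloading edgeR called 0 members, and 0% of all genes in each, with 2 and 3 members at an unadjusted p under 0.05, beside 4.03% and 4.58% of all genes. At reloading 16 members were lower in mKO than in flox muscle and 0 higher, beside 3.85% of all genes lower and 1.06% higher. The median difference was -0.47. For 24 members every mKO reloading library lay below every flox reloading library, as it did for 12.8% of all genes. Shared by this comparison and the flox reloading change are the 3 flox reloading libraries.

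The MCM subunits Mcm3 (ENSMUSG00000041859, chr1:20802968-20820312), Mcm4, Mcm5 (ENSMUSG00000005410, chr8:75109569-75128439) and Mcm6 (ENSMUSG00000026355, chr1:128331590-128359664) were lower in mKO muscle, with log2 differences of -0.74 ± 0.11 (adjusted p = 0.00138), -0.62 ± 0.15 (adjusted p = 0.02201), -1.47 ± 0.25 (adjusted p = 0.00369) and -0.97 ± 0.18 (adjusted p = 0.00482). For Mcm5 the mKO level was 0.362 of the flox level. Cdc6 differed by -1.499 ± 0.33 (adjusted p = 0.0125), and it alone of the licensing genes passed. Mcm10 and Gins2 among the activators had the steepest differences, -1.72 ± 0.46 (adjusted p = 0.0372) and -1.74 ± 0.35 (adjusted p = 0.00804). Pola1 was the polymerase gene that passed, -0.78 ± 0.18 (adjusted p = 0.0173). Of the clamp genes, Pcna differed by -0.38 ± 0.08 (adjusted p = 0.0148) and Rfc5, which had not risen in flox muscle, by -0.69 ± 0.18 (adjusted p = 0.0309). Lig1 (ENSMUSG00000056394, chr7:13277283-13311433) differed by -1.09 ± 0.18 (adjusted p = 0.00236). Rrm2 (ENSMUSG00000020649, chr12:24708241-24714146) and Tyms differed by -1.42 ± 0.22 (adjusted p = 0.002097) and -1.08 ± 0.23 (adjusted p = 0.0116). Chaf1b and Uhrf1 differed by -1.54 ± 0.31 (adjusted p = 0.00806) and -1.33 ± 0.28 (adjusted p = 0.00965). E2f1 (ENSMUSG00000027490, chr2:154559407-154569892) differed by -1.38 ± 0.24 (adjusted p = 0.00394). All coordinates are on GRCm38.

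For 8 members that rose in flox muscle the genotype difference did not pass, and the 95% interval of the difference is given for each. The interval was -0.38 to 0.102 for Mcm2, -1.48 to -0.28 for Cdt1, -0.98 to -0.04 for Prim1 and -1.204 to -0.23 for Prim2. It was -0.296 to 0.11 for Pola2, -0.67 to 0.06 for Rfc3, -0.42 to 0.14 for Tk1 and -0.66 to 0.06 for Chaf1a. The Cdt1 and Prim2 intervals reach past 1 log2 unit of lower expression. Of the 16, 6 were called under every alternative setting: Mcm3, Mcm5, Mcm6, Lig1, Rrm2 and E2f1. The count was 10 without flox reloading replicate 1, 6 without flox reloading replicate 2, and 6 without mKO reloading replicate 3. With total counts for scaling, which shifts the median of all genes by -0.13, it was 19. The shares of all genes called in these refits are not given here.

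**Figure D4:**
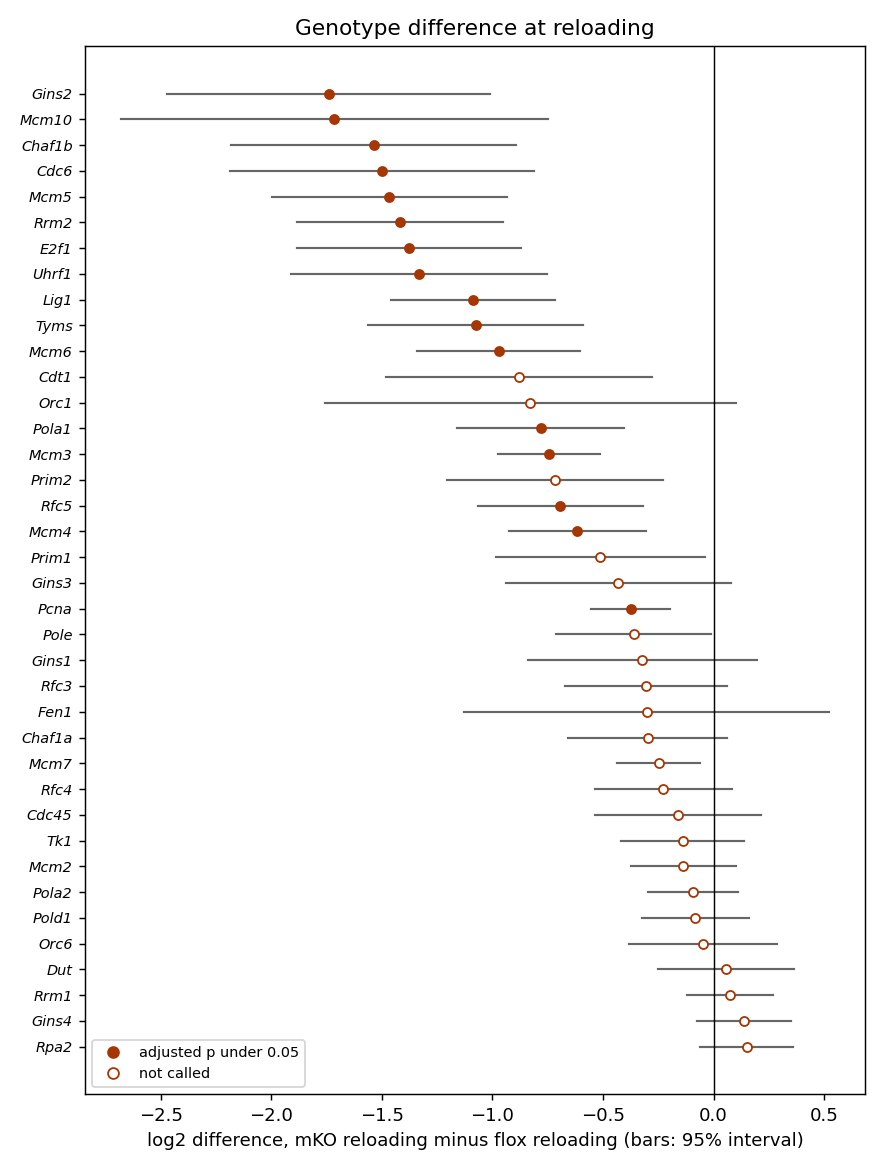
Log2 difference, mKO minus flox, at reloading for each member (horizontal axis), in order of size, with bars for the 95% interval; filled marks passed the adjusted p of 0.05. The 16 that passed all lie left of 0, from Pcna at -0.38 to Gins2 at -1.74.

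Whether the response itself differed between genotypes was asked by the interaction. For the change from unloading to reloading edgeR called 0 members and 0% of all genes. By DESeq2 1 member was called, and its share of all genes is not given here. At an unadjusted p under 0.05 stood 13 members, beside 10.5% of all genes. For the change from control to unloading edgeR called 0 members and 0% of all genes, with 4 members and 4.11% of all genes at an unadjusted p under 0.05. For the change from control to reloading 3 members were lower in mKO muscle and 0 higher, beside 0.499% of all genes lower and 0.0224% higher. They were Gins2, -2.43 ± 0.52 (adjusted p = 0.0456), Rrm2, -1.58 ± 0.33 (adjusted p = 0.03804), and Tyms, -1.71 ± 0.34 (adjusted p = 0.0345). Among the 38, 19 had an unadjusted p under 0.05, beside 13.3% of all genes, and the median was -0.62. Gins2 and Tyms also stood higher in mKO than in flox muscle at control with no overlap, by 0.69 ± 0.39 (adjusted p = 0.9998) and 0.63 ± 0.25 (adjusted p = 0.9998), differences that did not pass and that enter this interaction. Such a lack of overlap was seen for 4.82% of all genes. For Gins2 the gap was small, from 0.256 CPM in the highest flox library to 0.258 in the lowest mKO one. For Rrm2 the control libraries overlapped, at 0.17 ± 0.24 (adjusted p = 0.9998). The count of called members ran from 0 to 10 when 1 library was left out, and it was 0 without any single flox control library.

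The authors' deposited tables give fold changes of their own, shrunk towards 0 for weak effects, for 4 comparisons with mKO in the name. The p-values of the 38 members in their table named for mKO reloading against control followed the control-to-reloading interaction above (rank correlation 0.994 over the 38 genes). By that table, 11 members were lower and 0 higher, with 2.11% of the 15910 genes lower. They were Mcm3, Mcm5, Cdc6, Gins2, Pola1, Pcna, Lig1, Rrm2, Tyms, Chaf1b and E2f1. The authors' deposited table gives Mcm5 -1.22 (adjusted p = 0.00512), Rrm2 -1.29 (adjusted p = 0.00245) and Tyms -1.399 (adjusted p = 0.00161). Their table named for mKO reloading against unloading followed the unloading-to-reloading interaction (0.996). By this authors' deposited table, Mcm3 was the only member called, lower at -0.51 (adjusted p = 0.0251), where 0.729% of genes were lower. Mcm3 rose on reloading in both genotypes above, so this value is not read as a fall within mKO muscle. The other 2 deposited tables call 0 members and 0 genes. The one named for mKO unloading against control followed the control-to-unloading interaction (0.998). The one named for mKO control against wt control followed mKO against flox at control (0.995).

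Genes of the wider pathway were set beside the 38. Of all tested genes, 17% were higher and 14.9% lower on reloading in flox muscle and 9.53% and 8.81% in mKO muscle. In mKO against flox at reloading the shares were 3.85% lower and 1.06% higher. Counts below are to be read beside these shares. Of 40 further replication genes 17 were higher and 3 lower on reloading in flox muscle, 7 and 3 in mKO muscle, and 0 and 7 in mKO against flox at reloading. Dtl, which directs Cdt1 to destruction, changed by 3.67 ± 0.36 in flox and 2.65 ± 0.41 in mKO muscle, and Clspn, the checkpoint adaptor, by 3.46 ± 0.39 and 3.36 ± 0.498. Between the genotypes at reloading Clspn differed by -1.798 ± 0.35 and Dtl by -1.76 ± 0.32. Of 16 other nucleotide metabolism genes 5 were higher and 2 lower in flox muscle, led by Nme1, which interconverts nucleoside phosphates, at 0.96 ± 0.14; 3 were higher and 0 lower in mKO muscle; and 0 differed between genotypes at reloading. Of 25 regulators of the G1 to S transition 14 were higher and 2 lower in flox muscle, with Ccnd1, cyclin D1, at 2.35 ± 0.16 and E2f8 at 2.21 ± 0.41, and 5 were higher and 5 lower in mKO muscle, where Ccnd1 had a log2 change of 1.77 ± 0.16. In mKO against flox at reloading 2 of the 25 were lower and 0 higher, E2f8 at -1.68 ± 0.39 (adjusted p = 0.0183) and Rbl1, a relative of the retinoblastoma protein, at -0.64 ± 0.17 (adjusted p = 0.0357). All 15 mitosis genes were higher on reloading in flox muscle, with a median of 4.08, and 12 in mKO muscle. Top2a, a topoisomerase of dividing cells, changed by 4.67 ± 0.41 in flox and 2.996 ± 0.43 in mKO muscle. In mKO against flox at reloading 14 of the 15 were lower, with a median of -2.04.

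Markers of the cells that whole muscle holds moved in the same libraries. The shares of all tested genes were again 17% higher and 14.9% lower on reloading in flox muscle and 9.53% and 8.81% in mKO muscle. Between genotypes at reloading, 3.85% of all genes were lower and 1.06% higher in mKO muscle. The 14 macrophage and monocyte markers summed to 335 to 500.0 CPM in flox reloading and 181 to 247 in mKO reloading, against 124 to 220.0 in the other groups. Of these 11 were higher and 1 lower on reloading in flox muscle and 4 and 0 in mKO muscle, and 10 of the 14 were lower in mKO against flox at reloading, such as Cd68 at -1.63 ± 0.26 and Fcgr1 at -1.81 ± 0.33. The mitosis genes summed to 80.1 to 112 CPM in flox reloading, 24.2 to 32.3 in mKO reloading and 6.65 to 16.7 elsewhere. The 8 satellite cell and myoblast markers summed to 67.7 to 83.4 CPM in flox reloading and 50.3 to 72.0 in mKO reloading; of these, 2 were lower in mKO against flox at reloading and 0 higher. The 2 were Mymk, which marks fusing myoblasts, at -1.51 ± 0.398 (adjusted p = 0.0345) and Myog, a factor of differentiating myoblasts, at -1.101 ± 0.25 (adjusted p = 0.0174). None of the other markers of this list passed. Of those, Pax7, Myf5 and Cdh15 gave 0.41 ± 0.21 (adjusted p = 0.2998), 0.27 ± 0.21 (adjusted p = 0.5197) and 0.06 ± 0.14 (adjusted p = 0.873). Values of Myod1, Vcam1 and Calcr are not given here, so no direction is read from these markers. The endothelial sum was 421 to 467 CPM in flox reloading against 373 to 395 in mKO reloading, and 2 of the 8 markers were lower in mKO muscle there and 0 higher, Pecam1 at -0.48 ± 0.07 (adjusted p = 0.00138) and Esam at -0.34 ± 0.09 (adjusted p = 0.0341). The sum of fibro-adipogenic progenitor markers was 859 to 1158 against 907 to 947 CPM, and 2 of the 8 were lower and 0 higher, Ly6a at -0.56 ± 0.12 (adjusted p = 0.0119) and Cd34 at -0.28 ± 0.07 (adjusted p = 0.0315). The fibre markers went the other way: their sum was 117276 to 136692 CPM in flox reloading and 137457 to 168329 in mKO reloading, with no overlap. Of the 8, 2 were higher in mKO muscle at reloading and 0 lower, the muscle creatine kinase gene Ckm at 0.37 ± 0.09 (adjusted p = 0.0262) and the calcium pump gene Atp2a1 at 0.51 ± 0.14 (adjusted p = 0.0437). Erythroid markers summed to 41.8 to 58.8 CPM against 41.8 to 60.8. The 10 T, B and NK cell markers summed to at most 2.74 CPM in any library, and the 8 neutrophil markers to 1.49 to 2.82 CPM in flox reloading and 0.868 to 1.23 in mKO reloading. The neutrophil gene Mpo was at 0 counts in flox control, mKO unloading and mKO reloading, and the T cell gene Cd3d at 0 in mKO reloading. In bulk muscle, more cells of a dividing type and more of these transcripts per cell cannot be told apart. The part of these cell types in the member differences was not tested.

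**Figure D5:**
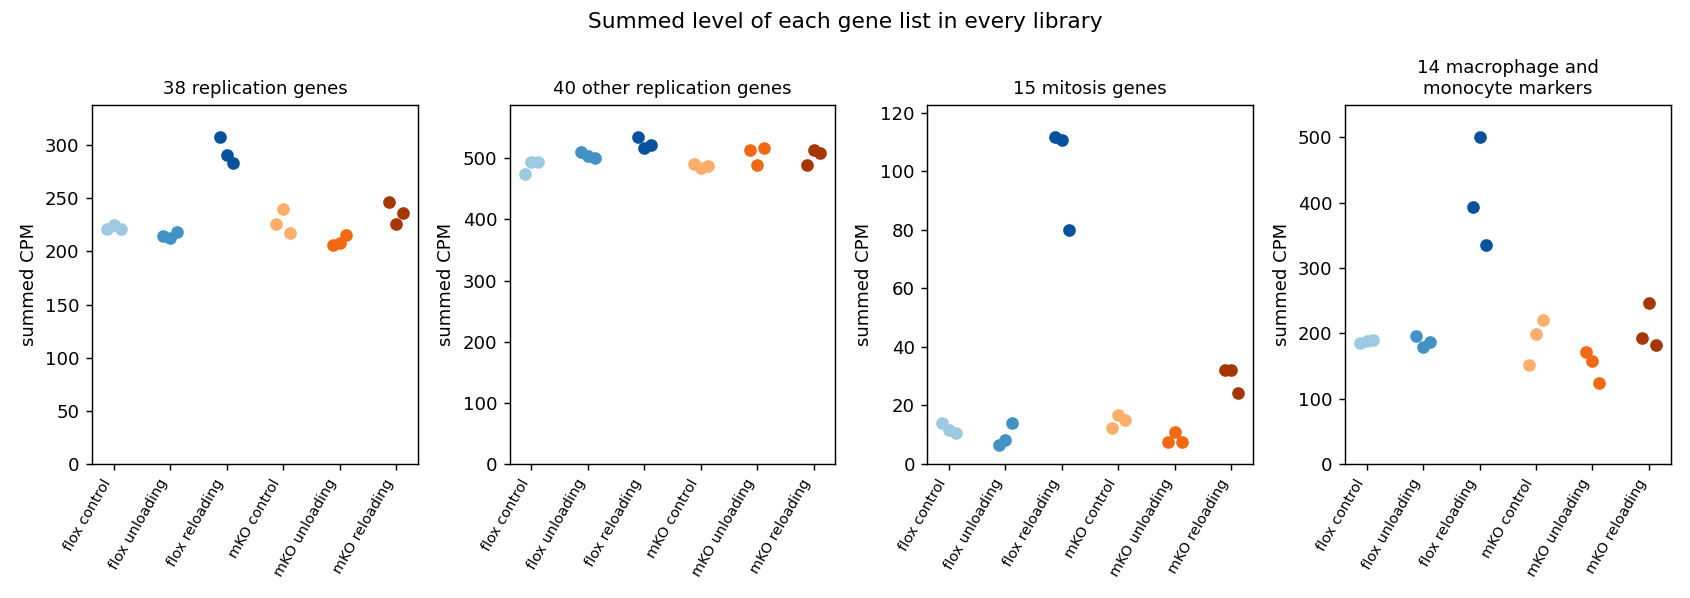
Summed CPM of the 38 replication genes, 40 other replication genes, 15 mitosis genes and 14 macrophage and monocyte markers (vertical axes linear from 0) in the 6 groups; each point is 1 library. The 38 genes, the mitosis genes and the macrophage markers are highest in the 3 flox reloading libraries.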

How the data were processed

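Polyadenylated RNA of 18 libraries was sequenced from TruSeq stranded libraries, per the labels' protocols. Per the submitters' processing notes the authors used STAR 2.7.3a, featureCounts 2.0.3 and DESeq2 on GRCm38.p6; the file header names featureCounts 1.6.4 and Ensembl 94 annotation and shows no strand option. The deposited table holds counts per gene. The authors' deposited comparison tables hold log2 fold changes, p-values and a base mean signal; the deposited exonic length served for CPM per kilobase.

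Counts were tested with edgeR 4.0.16 (R 4.3.3): TMM scaling, filterByExpr, a quasi-likelihood fit of 6 group means with 12 residual degrees of freedom, and Benjamini-Hochberg adjustment at 0.05 over 17833 genes. Intervals are 95% from the fit, for each gene alone and without adjustment. The procedure was tested on simulated data. DESeq2 1.42.0 and limma 3.58.1 were also loaded; DESeq2 was an alternative. Others were RLE or total-count scaling, no filter or a stricter one, only the compared groups, a replicate block, and leaving out each library. No library pair was identical in counts. The members and gene lists were chosen with earlier results of these data known. Each member is named; values in every library are given for the 2 most abundant of each role and for members that differed between genotypes, and the largest and smallest change of each role is given in each comparison of loading states within a genotype. From the other lists, up to 4 passing genes by size of change were eligible. Pax7, Myf5 and Cdh15, which did not pass, were given outside that rule. Promoters are RefSeq windows on GRCm38.p6.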

Additional observations from a re-analysis of the deposited data

Results flagged for a closer look

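Among the members, 3 changed differently from control to reloading in the 2 genotypes, by a test of that difference (edgeR's quasi-likelihood interaction, Benjamini-Hochberg adjusted). All 3 were lower in mKO muscle, beside 0.499% of all genes lower and 0.0224% higher. The mKO minus flox difference in that change was -2.43 log2 for Gins2 (adjusted p = 0.0456). The difference was -1.58 for Rrm2 (adjusted p = 0.0380) and -1.71 for Tyms (adjusted p = 0.0345). Every flox reloading library lay above every mKO reloading library for all 3, and the difference at reloading alone was -1.74 for Gins2, -1.42 for Rrm2 and -1.08 for Tyms. At control the mKO minus flox difference was 0.69 for Gins2, 0.17 for Rrm2 and 0.63 for Tyms. For Gins2, by a small gap, and for Tyms every mKO control library lay above every flox one, as for 4.82% of all genes. None of the 3 passed in every fit that left out 1 library, and the count of called members was 0 without flox control replicate 1.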

How the results depend on the processing

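No called member changed sign under any alternative run. Of 24 called in flox muscle between reloading and unloading 19 were called under every alternative, 20 of 23 for reloading against control, 8 of 11 in mKO muscle for reloading against unloading, and 6 of 16 between genotypes at reloading. Neither of the 2 calls for unloading against control in flox muscle and 1 of the 2 in mKO muscle held throughout. In the control-to-reloading interaction the count was 3, and it was 11 with total counts, 11 with no low-count filter, 9 with a stricter filter and 12 by DESeq2. The unloading-to-reloading interaction gave 0, then 2 with no filter and 1 by DESeq2. Reloading against control in mKO muscle gave 1, then 2 with RLE, 2 with total counts, 4 with no filter, 3 with a stricter filter and 4 by DESeq2. With only the compared groups, unloading against control gave 1 in flox and 1 in mKO muscle, where DESeq2 gave 4. The causes were not tested. Shares of all genes called under the alternative settings of this section are not given here. No gain or loss particular to the members is therefore read from these counts.

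Replicate numbers are shared between groups in the labels, but same-numbered libraries did not deviate together (correlations from -0.07 to 0.13, median 0.02, over 45 pairs). With a replicate block the control-to-reloading interaction gave 5 and mKO reloading against control 2; it moved no other count by over 1.5 times.

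Leaving out 1 library at a time, counts ran from 0 to 1 for unloading in flox muscle, 20 to 23 for reloading against unloading there, 21 to 24 for reloading against control, 1 to 2 for mKO unloading, 10 to 11 for mKO reloading against unloading, 0 to 2 for mKO reloading against control, 6 to 16 between genotypes at reloading, 0 to 1 for the unloading-to-reloading interaction and 0 to 10 for the control-to-reloading one. Members with few counts, such as Orc1 and Mcm10, limit what 3 libraries a group can show.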
